A study of Mus musculus with 2 samples.

Results

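The genes described here are *Pdgfra*, which encodes the alpha receptor for platelet-derived growth factor (PDGF), and the ligand genes *Pdgfa*, *Pdgfb*, *Pdgfc* and *Pdgfd*, 5 of the 31053 genes listed in the count matrices. They were taken by symbol and read in cultured primary mouse brain pericytes (PCs), with *Pdgfrb*, the beta receptor gene and the usual PC marker, read in the same cells for comparison. Single-cell RNA sequencing gave 1 library from PCs at passage 5 (PC5) and 1 library from PCs at passage 20 (PC20). In both groups the cells came from brains of wild type female C57BL/6N mice aged 6 to 8 weeks, with 6 mice pooled for an isolation, and were grown on collagen, first in endothelial cell growth medium and then in pericyte medium. The sample labels and the paper's methods name no transgene, agent or genetic change that separated the groups. Genetic changes acquired in culture were not tested. By the paper's methods PC5 and PC20 were separate isolations, although the deposited protocol describes a single one. With 1 culture per passage, the effects of passage, isolation and library cannot be told apart, no test between passages was possible, and every interval below covers counting error at the 95% level and nothing of the spread between cultures.

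A cell was kept when more than 1000 genes were seen in it and under 20% of its UMIs (unique molecular identifiers, each tagging 1 captured RNA molecule) were mitochondrial, which left 9950 of 10629 PC5 barcodes and 4749 of 4884 PC20 barcodes. The kept cells held 223054273 UMIs in PC5, with a median of 21700 per cell, and 191122251 in PC20, with a median of 33424. Levels are given as CPM, the UMIs of a gene summed over the kept cells per 1000000 UMIs, and a UMI stands for a molecule whatever the length of its gene. The libraries shared 20 cell barcodes, and no cell with a *Pdgfra* UMI in PC20 or a *Pdgfb* UMI in PC5 carried one of them. The 2 cultures stood far apart in genes other than those of the PDGF system. *Col1a2*, a chain of type I collagen, had UMIs in 98.1% of the PC5 cells but in 0.190% of those in PC20, whereas *Krt18*, a keratin, had UMIs in 0.261% and 99.6%.

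PDGFs act as dimers that bring receptor tyrosine kinases together. PDGF-A and PDGF-C chains signal mainly through the alpha receptor, PDGF-D chains mainly through the beta receptor, and PDGF-B chains through both. In the brain, endothelial PDGF-B recruits PCs that carry the beta receptor, while the alpha receptor is known from fibroblasts and oligodendrocyte precursors. PDGF-A and PDGF-B are cut inside the cell by furin-like convertases, whereas PDGF-C and PDGF-D are secreted in a latent form and opened outside the cell by proteases such as the plasminogen activators.

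On GRCm38 with the GENCODE M21 annotation, *Pdgfra* (ENSMUSG00000029231) lies on the plus strand at chr5:75152292-75198215 and *Pdgfa* (ENSMUSG00000025856) on the minus strand of the same chromosome at chr5:138976014-138997370. *Pdgfb* (ENSMUSG00000000489) lies on the minus strand at chr15:79995874-80014977, *Pdgfc* (ENSMUSG00000028019) on the plus strand at chr3:81036416-81214040 and *Pdgfd* (ENSMUSG00000032006) on the plus strand at chr9:6168584-6378850. Each of the 5 overlaps 1 other listed gene, always on the opposite strand. The overlapping gene with most UMIs, 6330403L08Rik at *Pdgfa*, had 464 in PC5 and 246 in PC20.

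Promoter sequence from RefSeq on GRCm38.p6 was found for 4 of the 5 genes, and not for *Pdgfb*. The 250 bases before the start are shown for the gene with the largest difference between the libraries (*Pdgfra*), for the ligand gene with most UMIs in both (*Pdgfa*, the upstream of its 2 promoters) and for a ligand gene that was higher in PC20 (*Pdgfc*). They are written in the direction of transcription, with every CG dinucleotide in capitals.
*Pdgfra*, chr5:75152001-75152250, plus strand: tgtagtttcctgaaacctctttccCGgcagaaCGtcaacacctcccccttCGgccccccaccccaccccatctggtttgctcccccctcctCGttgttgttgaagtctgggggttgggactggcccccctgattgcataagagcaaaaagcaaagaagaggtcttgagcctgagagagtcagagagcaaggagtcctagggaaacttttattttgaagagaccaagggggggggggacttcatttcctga
*Pdgfa*, chr5:138994945-138995194, minus strand: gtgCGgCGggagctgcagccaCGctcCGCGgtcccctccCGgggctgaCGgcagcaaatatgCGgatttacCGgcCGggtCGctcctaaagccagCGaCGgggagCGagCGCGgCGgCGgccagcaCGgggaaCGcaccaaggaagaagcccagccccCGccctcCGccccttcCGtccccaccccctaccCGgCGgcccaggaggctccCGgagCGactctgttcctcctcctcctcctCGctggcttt
*Pdgfc*, chr3:81036166-81036415, plus strand: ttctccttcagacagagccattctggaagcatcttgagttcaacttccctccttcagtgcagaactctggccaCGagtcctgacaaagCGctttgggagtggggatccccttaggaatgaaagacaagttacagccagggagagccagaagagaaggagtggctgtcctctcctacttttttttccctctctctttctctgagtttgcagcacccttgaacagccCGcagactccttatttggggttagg

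The *Pdgfa* window held 28 CG dinucleotides at a GC content of 72.4%, and 7.61% of 32851 mouse promoter windows of this length held as many. The *Pdgfra* window held 4 at 54.4% GC and the *Pdgfc* window 3 at 50.8% GC, near the median window (6 CG dinucleotides, 52.4% GC). Searched on both strands, the letters GGGCGG (a GC box) stood at 2 places in the *Pdgfa* window above, 93 and 86 bases before the start on the opposite strand, and 32.7% of all windows held them. They also stood 60 bases before the other *Pdgfa* start. TATAAA, present in 12.4% of windows, was found 160 bases before the *Pdgfd* start. The E-box letters CACGTG, present in 6.02% of windows, were found in none of the windows of these genes, with no window for *Pdgfb* to search. The same was true of the AP-1 letters TGACTCA and their reverse complement, present in 4.46%.

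*Pdgfra* showed the largest difference of the 5 genes: it was abundant in PC5 and nearly without UMIs in PC20. The PC5 library held 19758 *Pdgfra* UMIs, or 88.6 CPM (87.3 to 89.8). In PC20 there were 25 UMIs, or 0.131 CPM (0.0847 to 0.193). The log2 ratio of PC5 over PC20 was 9.40 (8.84 to 10.03), a 677-fold difference in counts, taken on a PC20 level that was not told apart from background.

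The 4 ligand genes fell into 2 pairs, a pair at like levels in both libraries and a pair that was higher in PC20. *Pdgfa*, which encodes the A chain, had 16651 UMIs in PC5 (74.7 CPM, 73.5 to 75.8) and 16700 in PC20 (87.4 CPM, 86.1 to 88.7). Its log2 ratio of -0.23 (-0.26 to -0.20) was well within 2-fold. *Pdgfd* was likewise similar, at a much lower level, with 930 UMIs in PC5 (4.17 CPM, 3.91 to 4.45) and 886 in PC20 (4.64 CPM, 4.34 to 4.95). Its log2 ratio was -0.15 (-0.29 to -0.02).

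*Pdgfb*, the ligand gene known for PC recruitment, was all but undetected in PC5, with 18 UMIs (0.0807 CPM, 0.0478 to 0.128). PC20 held 966 *Pdgfb* UMIs (5.05 CPM, 4.74 to 5.38), and the log2 ratio of -5.97 (-6.73 to -5.30) corresponds to 62.6-fold more in PC20. That fold is taken on a PC5 level not told apart from background by its share of cells. This size depends on how cells are weighted and chosen, since the log2 ratio was -5.20 for means over cells and -5.14 without cells holding the proliferation genes *Mki67* or *Top2a*. *Pdgfc*, encoding a latent ligand of the alpha receptor, went the same way. Its 214 UMIs in PC5 (0.959 CPM, 0.835 to 1.10) stood against 2162 in PC20 (11.3 CPM, 10.8 to 11.8). The *Pdgfc* log2 ratio was -3.56 (-3.77 to -3.36), or 11.8-fold higher in PC20.

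*Pdgfrb* was higher in PC5, as *Pdgfra* was, but by a smaller factor. PC5 had 44.6 CPM of it (43.7 to 45.5) and PC20 had 5.43 (5.10 to 5.77), an 8.21-fold difference.

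**Figure D1:**
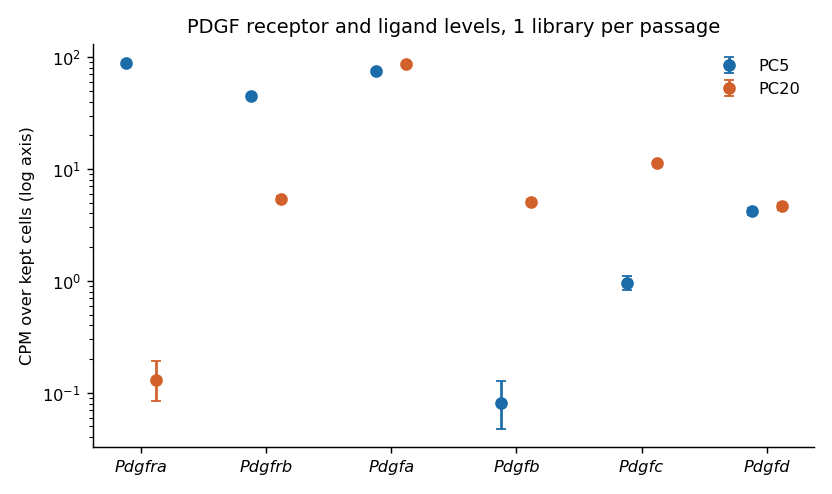
Level of each gene in PC5 and PC20, as CPM over the kept cells on a log axis, with 1 point per library and bars for the 95% Poisson interval (hidden by the point where narrow). *Pdgfa* and *Pdgfd* sit at like heights in both libraries, *Pdgfra* stands at 88.6 CPM in PC5 and 0.131 in PC20, and *Pdgfb* and *Pdgfc* are higher in PC20.

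Of the 5 genes, 1 was more than 2-fold higher in PC5 and 2 were more than 2-fold higher in PC20. Among the 13539 genes with a UMI in at least 1% of cells of either library, 22.3% were past 2-fold in the direction of PC5 and 20.0% in that of PC20, so 42.3% passed in either direction. The libraries thus differed this much in many genes, and 3 of 5 is a count on 5 genes only. In place among those genes, 68 had a higher ratio than *Pdgfra*, 131 a lower one than *Pdgfb* and 423 a lower one than *Pdgfc*, while 977 had a higher ratio than *Pdgfrb*.

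The order of the levels differed between the passages. In PC5 it ran *Pdgfra*, *Pdgfa*, *Pdgfrb*, *Pdgfd*, *Pdgfc* and *Pdgfb*, and no neighbours in that order had overlapping counting intervals. In PC20 it ran *Pdgfa*, *Pdgfc*, *Pdgfrb*, *Pdgfb*, *Pdgfd* and *Pdgfra*. There the intervals of *Pdgfrb* and *Pdgfb* overlapped, and so did those of *Pdgfb* and *Pdgfd*.

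Taking the 4 ligand genes together, PC5 held 17813 ligand UMIs (79.9 CPM) and PC20 held 20714 (108 CPM). *Pdgfa* made up 93.5% of them in PC5 and 80.6% in PC20. The rest of the PC5 ligand UMIs were mostly *Pdgfd*, at 5.22%, with 1.20% *Pdgfc* and 0.101% *Pdgfb*. In PC20 *Pdgfc* came next, at 10.4%, followed by *Pdgfb* at 4.66% and *Pdgfd* at 4.28%. PC20 therefore held a more mixed set of ligand transcripts, with almost no transcripts of the alpha receptor.

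The shares of cells with a UMI showed how widely each gene was seen. A *Pdgfra* UMI was found in 6833 PC5 cells, 68.7% (67.8 to 69.6), and in 21 PC20 cells, 0.442% (0.274 to 0.675). *Pdgfa* was the ligand gene seen in most cells, 67.1% in PC5 and 83.2% in PC20. *Pdgfb* was seen in 10 PC5 cells (0.101%) and in 16.2% of PC20 cells. For *Pdgfc* the shares were 2.08% and 31.3%, and for *Pdgfd* 8.37% and 15.0%.

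PC20 cells held more UMIs, so each cell was also thinned to 10500 UMIs, which left 8847 PC5 and 4474 PC20 cells and dropped 1103 and 275 shallower ones. At this equal depth *Pdgfra* was seen in 53.0% of cells of PC5 and 0.112% of cells of PC20. *Pdgfa* was seen in 48.6% and 54.7%. *Pdgfb* was seen in 0.0678% and 5.05%, and *Pdgfc* in 1.01% and 9.86%. For *Pdgfd* the thinned shares were 4.14% in PC5 and 3.89% in PC20, the opposite order to its CPM, so no order is read for this gene.

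Free RNA can put UMIs in cells that do not express a gene. No cell in these cultures is known to lack the PDGF genes, so 10 genes of unrelated lineages, such as blood cells and liver, were used as a guide to stray counts. They have no known source in the cultures and so do not measure the free RNA of a gene that some cells express. Their highest share was 0.191% of cells in PC5 and 0.379% in PC20, and 0.113% and 0.179% after thinning, at the median depths given above. The PC5 share for *Pdgfb* lay below this level and by its size was not told apart from background, although 3 of the 10 cells held more than 1 UMI. The PC20 share for *Pdgfra* had an interval that held this level, and its thinned share lay below it, so *Pdgfra* expression in PC20 was not told apart from background at this depth.

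**Figure D2:**
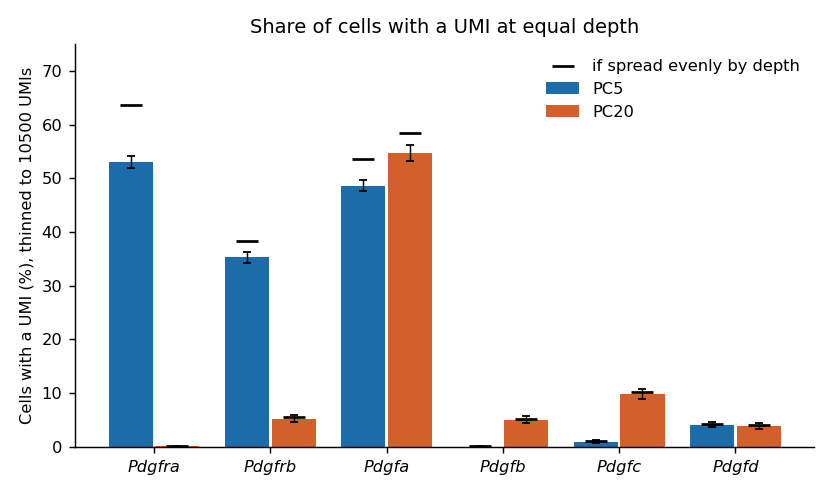
Share of cells with a UMI after thinning every cell to 10500 UMIs, in percent, for 8847 PC5 and 4474 PC20 cells, with 95% Clopper-Pearson bars. Black dashes mark the share that would be seen if the UMIs lay in the cells in proportion to depth, and the PC5 *Pdgfra* bar, at 53.0%, stands below its dash at 63.6%.

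Within PC5, *Pdgfra* was spread unevenly. Had its UMIs fallen in cells in proportion to their depth, 80.6% of cells would have held 1, against the 68.7% observed. The number per cell reached 21, and the 5% of cells with most *Pdgfra* UMIs held 22.5% of them. For *Pdgfa* 75.9% was expected and 67.1% observed in PC5, and 89.8% and 83.2% in PC20. In PC20 the expected and observed shares were 34.1% and 31.3% for *Pdgfc*, 17.7% and 16.2% for *Pdgfb*, and 16.4% and 15.0% for *Pdgfd*. For *Pdgfb* in PC5 they were 0.181% and 0.101%, since its 18 UMIs lay in 10 cells, with up to 5 in a cell.

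Set against *Pdgfrb* in the same cells, *Pdgfra* was the more abundant receptor transcript in PC5 and the far less abundant in PC20. It made up 66.5% (66.0 to 67.1) of the 29700 receptor UMIs in PC5 and 2.35% (1.53 to 3.46) of the 1062 in PC20. Of the PC5 cells, 4094 (41.1%) held UMIs of both receptors, 2739 (27.5%) of *Pdgfra* only, 1300 (13.1%) of *Pdgfrb* only and 1817 (18.3%) of neither. More *Pdgfra* than *Pdgfrb* UMIs were found in 4966 PC5 cells and fewer in 2123. In PC20, 7 cells held both, 14 *Pdgfra* only, 776 *Pdgfrb* only and 3952 (83.2%) neither.

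UMIs of both receptors were found in the same PC5 cell slightly more often than depth alone would give. With cells grouped into 20 bins of depth, 3916 cells with both would be seen if the receptors were independent, and the observed number was 1.05 times (1.02 to 1.07) that. After thinning it was 1.07 times (1.03 to 1.12). With 4 bins of depth it was 1.06 times the expectation over the library and 1.04 times (1.01 to 1.06) the expectation within clusters of similar cells. *Pdgfra* was also higher in cells with more *Pdgfrb* UMIs. It stood at 78.5 CPM (76.7 to 80.3) in the 4556 PC5 cells with 0 *Pdgfrb* UMIs, 92.7 with 1, 90.8 with 2, and 106 (102 to 110) in the 1124 cells with 3 or more. In thinned cells the same levels were 87.7, 107, 117 and 141 CPM. The relation was weak cell by cell, with Pearson's *r* of 0.09 and Spearman's rho of 0.08 over 8847 thinned cells of 1 library, which share their depth and culture.

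*Pdgfa* in PC5 lay between 73.7 and 77.5 CPM in the same 4 groups of cells. In thinned cells it was 73.2, 74.4 and 71.7 CPM with 0, 1 and 2 *Pdgfrb* UMIs and 60.5 (50.8 to 71.6) with 3 or more, so no direction is read for it. Receptor and ligand were often seen together, since 4899 PC5 cells (49.2%) held both *Pdgfra* and *Pdgfa* UMIs, but this was close to the 4853 expected from depth.

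In PC20 *Pdgfb*, *Pdgfd* and *Pdgfa* were each higher, before thinning, in the cells with 3 or more *Pdgfrb* UMIs than in those without. The former were deeper, with a median of 63954 UMIs against 31700. The *Pdgfb* level was 4.56 CPM (4.22 to 4.91) in the 3966 cells without a *Pdgfrb* UMI, 5.67 (4.87 to 6.56) with 1, 9.70 (7.58 to 12.2) with 2 and 11.0 (7.77 to 15.1) in the 49 cells with 3 or more. In thinned cells *Pdgfb* was 4.85 CPM (4.23 to 5.55) with 0 *Pdgfrb* UMIs and 7.02 (4.01 to 11.4) with 1, and these intervals overlap. It had 3 UMIs in the 17 thinned cells with 2. UMIs of both *Pdgfb* and *Pdgfrb* were found in 194 cells, against 159 expected from depth, and in 17 against 11.9 after thinning. With 4 bins of depth, 152 such cells were expected over the library and 177 within clusters, and the ratio within clusters was 1.10 (0.95 to 1.26), an interval that holds 1. *Pdgfd*, the ligand gene for the beta receptor, stood at 4.42 CPM (4.09 to 4.77) without *Pdgfrb*. It was 5.10 with 1 UMI, 5.19 with 2 and 8.67 (5.85 to 12.4) in the 49 cells with 3 or more. In thinned cells *Pdgfd* was 3.68 CPM (3.14 to 4.29) with 0 *Pdgfrb* UMIs and 7.90 (4.68 to 12.5) with 1, and these intervals do not overlap. *Pdgfd* had 0 UMIs in the 17 thinned cells with 2. It was found with *Pdgfrb* in 170 cells against 153 expected from depth, and in 18 against 8.89 after thinning. With 4 bins of depth, 146 such cells were expected over the library, a ratio of 1.16. Within clusters 157 were expected, a ratio of 1.08 (0.930 to 1.26) whose interval also holds 1. *Pdgfc* in PC20 lay between 10.5 and 12.1 CPM in the same 4 groups. *Pdgfa* stood at 86.9 CPM (85.4 to 88.4) without *Pdgfrb*, 84.1 with 1 UMI, 98.1 with 2 and 116 (105 to 128) with 3 or more. In thinned cells *Pdgfa* was 84.0, 80.3 and 78.4 CPM with 0, 1 and 2 *Pdgfrb* UMIs, so no direction is read for it.

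**Figure D3:**
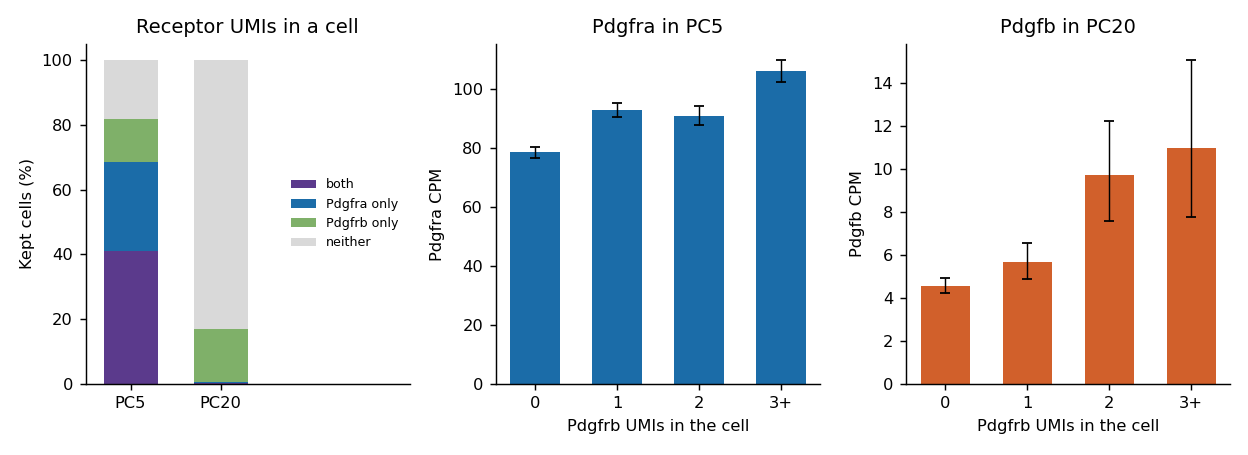
Left, kept cells (%) with UMIs of both receptors, of *Pdgfra* only, of *Pdgfrb* only or of neither, in PC5 and PC20. Middle and right, CPM of *Pdgfra* in PC5 and of *Pdgfb* in PC20 in cells grouped by their number of *Pdgfrb* UMIs, with 95% Poisson bars. *Pdgfra* runs from 78.5 CPM at 0 *Pdgfrb* UMIs to 106 at 3 or more, and *Pdgfb* from 4.56 to 11.0. The cells were not thinned, and those with more *Pdgfrb* UMIs were deeper.

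Clusters of cells made within each library, without the PDGF genes and *Pdgfrb*, gave 9 clusters of at least 50 cells in PC5 and 12 in PC20. They are given by number and leading genes, and cells of a library are not replicates. In PC5 *Pdgfra* ranged from 13.6 to 192 CPM, with a median of 82.0. It was highest in cluster 6 (931 cells), which was led by *Trf*, *Il33*, *Slc1a3*, *Mmp3* and *Sparcl1* and also by *Dcn* and *Aldh1a2*, and 86.6% of its cells held a UMI. The lowest level was in cluster 7 (342 cells), led by *AY036118*, *Acta2* and *Lars2*, where the median depth was 5697 UMIs against 21700 for the library. *Pdgfrb* was also lowest there, at 6.38 CPM, but was highest in another cluster, cluster 5, led by *Xlr*, *Snhg11*, *Mgp* and *Prelp*. In cluster 5 *Pdgfrb* stood at 72.7 CPM and *Pdgfra* at 111.

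*Pdgfa* in PC5 ranged from 23.0 CPM in cluster 7 to 97.0 in cluster 4, which was led by *Stra6* and *Col6a3*. In PC20 it lay between 30.0 CPM, in cluster 11 of shallow cells, and 109 in cluster 10. *Pdgfb* in PC20 was highest in cluster 6 (312 cells, 10.9 CPM), with *Bgn*, *Cdo1* and *Ckb* among its leading genes, and in cluster 10 (160 cells, 10.8 CPM), led by *Sult1a1*, *Ogn* and *Aldh1a1*. These were also the clusters with most *Pdgfrb*, at 13.0 and 14.7 CPM. *Pdgfc* reached 15.5 CPM in cluster 6 and *Pdgfd* 8.22 in cluster 10. *Pdgfra* in PC20 had 0 UMIs in 6 of the 12 clusters and at most 0.466 CPM in the others, so its near absence was seen across the culture.

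**Figure D4:**
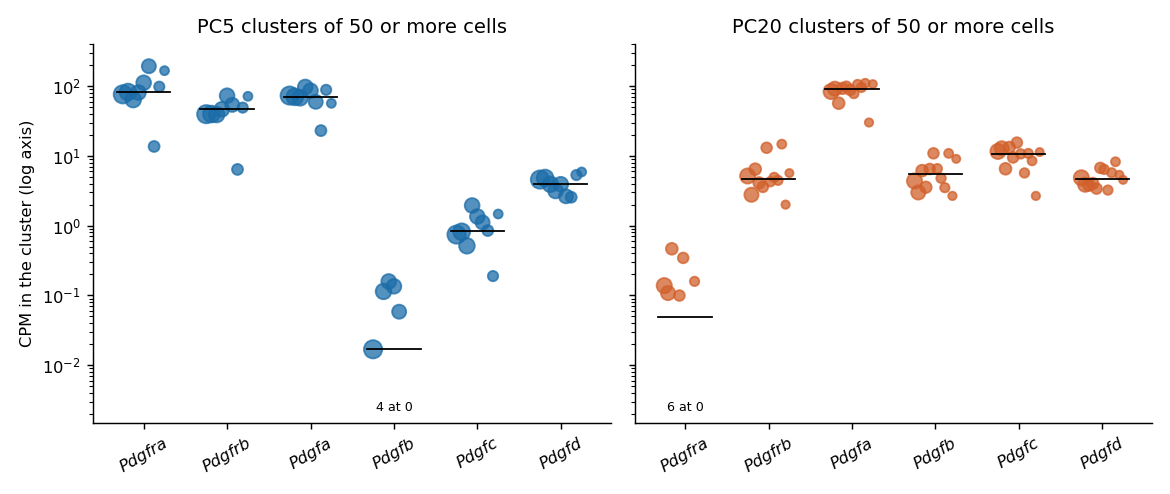
CPM of each gene in the clusters of at least 50 cells, 9 in PC5 (left) and 12 in PC20 (right), on a log axis. Each point is a cluster, larger with more cells, black lines mark medians, and the text at the foot gives the number of clusters at 0. *Pdgfra* ranges from 13.6 to 192 CPM over the PC5 clusters, above its highest PC20 cluster at 0.466.

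Other divisions of the PC5 cells moved *Pdgfra* by less. It was 78.6 CPM in cells with a UMI of the proliferation genes *Mki67* or *Top2a* and 99.4 in cells with neither. The former were deeper, with a median of 25567 UMIs against 19195. In 4 groups of nearly equal numbers of cells, from shallow to deep, *Pdgfra* was 114, 108, 90.0 and 70.3 CPM, so depth moved with its level. Among PC markers, cells with *Rgs5* had 110 CPM against 87.9 without, whereas cells with *Cspg4* (the proteoglycan NG2) had 61.3 against 92.6 and were deeper, with a median of 27693 UMIs against 21019. Cells with *Lum*, which encodes a fibroblast proteoglycan, had 139 CPM against 86.2 without it. Those with *Col3a1* had 89.2 CPM against 46.2 in the 375 cells without, which were shallow, with a median of 7034 UMIs. Those with *Acta2* had 74.1 CPM against 101 without, and were deeper, with a median of 24753 UMIs against 19891.

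The genes most like *Pdgfra* over the thinned PC5 cells, among 7438 with a UMI in at least 10% of cells, were *Apod*, *Spp1*, *Aldh1a2*, *Nr2f1* and *Dcn*, with Pearson's *r* from 0.24 to 0.22. For *Pdgfa* they were *Ccnd1*, *Cd44*, *Cdkn1a*, *Mdm2* and *Ddit4l* in PC5 (*r* from 0.15 to 0.12), and *Cdkn1a*, *Ccnd1*, *Mdm2*, *Sorbs2* and *Hmga2* in PC20 (*r* from 0.13 to 0.09). All of these are weak and are given as a description. *Pdgfb*, *Pdgfc* and *Pdgfd* were seen in too few thinned cells for such a ranking.

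The marker genes of cell types in which these receptors are known were read beside them. The 9 fibroblast markers, *Pdgfra* among them, were all past 2-fold in the direction of PC5, beside 22.3% of all 13539 genes. The median log2 ratio of these markers was 7.54 against 0.03 for all genes. Without *Pdgfra*, all 8 were past 2-fold, with a median of 7.06. *Pdgfra*, *Lum*, *Dcn*, *Col1a2*, *Dpt* and *Pi16* reached 1% of cells in PC5 only. The summed level of the 9 markers was 3657 CPM in PC5 and 108 in PC20, where *Lum* was at 0. Of the 9 pericyte markers 5 were seen in at least 1% of cells. Of those 5, 4 were more than 2-fold higher in PC5, beside 22.3% of all genes. *Rgs5* and *Cspg4* reached 1% of cells in PC5 only. PC5 held 405 UMIs of *Rgs5* and 1237 of *Cspg4*, and PC20 held 0 and 19. *Anpep* stayed within 2-fold. The defining PC genes *Abcc9*, *Kcnj8*, *Vtn* and *Higd1b* had at most 20 UMIs in either library. The summed level of all 9 pericyte markers was 65.2 CPM in PC5 and 10.1 in PC20, of which *Pdgfrb* made up 44.6 and 5.43. In PC20 *Anpep* and *Notch3*, at 3.00 and 1.60 CPM, were the only pericyte markers other than *Pdgfrb* with more than 19 UMIs.

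Markers of oligodendrocyte precursors other than *Pdgfra* and *Cspg4* were rare, with 71 UMIs of *Olig1* and 27 of *Olig2* in PC5, 2 each of *Sox10* and *Gpr17*, and 0 of all 4 in PC20. A PC5 cluster of 40 cells led by *Mt3*, *Igfbp2*, *Fabp7*, *Sox2*, *Gfap* and *Olig1* held only 19 *Pdgfra* UMIs (28.6 CPM). Of the endothelial markers, *Cdh5* was at 168 CPM in PC5 and 0.0262 in PC20, *Flt1* at 17.6 and 73.9, and *Pecam1* and *Cldn5* had at most 121 UMIs in a library. Of the smooth muscle genes, *Tagln* was at 219 CPM in PC5 and 0.230 in PC20. *Acta2* stayed within 2-fold, at 62.8 and 49.2 CPM, and *Myh11* had 46 and 13 UMIs. The microglial genes *Cd48* and *Adgre1* were at 0 in both, while *Csf1r* had 116 UMIs in PC5 and 3 in PC20. Of the astrocyte genes, *Slc4a4* was at 143 CPM in PC5 and 229 in PC20. *Aldh1l1* was at 7.35 and 0.0262 CPM, and *Gfap* had 97 and 0 UMIs. The part of other cell types in the *Pdgfra* difference was not tested.

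A list of 9 genes for PDGF receptors and related receptor kinases included *Pdgfra*, *Pdgfrb* and the receptor-like gene *Pdgfrl*. Of these, 7 were seen in at least 1% of cells. Of those 7, 6 were more than 2-fold higher in PC5 and 1 in PC20, beside 22.3% and 20.0% of all genes. The 6 included *Pdgfra*, *Pdgfrb* and *Pdgfrl* (log2 ratio 2.94). Leaving out *Pdgfra*, the counts were 5 and 1 of 6 genes. *Pdgfra*, *Pdgfrl*, *Kdr* and *Csf1r* reached 1% of cells in PC5 only. *Kdr*, the main VEGF receptor gene, had 12.8 CPM in PC5 and 0.0680 in PC20 (log2 ratio 7.55). *Csf1r* and *Flt4*, encoding the receptors for CSF1 and for VEGF-C, had log2 ratios of 5.05 and 4.17, the former on 116 and 3 UMIs. *Flt1*, another VEGF receptor gene, went the other way, with a log2 ratio of -2.07. Among the ligand genes of the PDGF and VEGF family, 2 of 9 were more than 2-fold higher in PC5, namely *Vegfc* (log2 ratio 5.47) and *Vegfd* (3.74). The 2 higher in PC20 were *Pdgfb* and *Pdgfc*. Both counts are near the shares over all genes, 22.3% and 20.0%, but the PC20 count holds only PDGF genes already described as higher there. Of the 5 ligand genes outside the PDGF genes, 2 were more than 2-fold higher in PC5 and 0 in PC20. *Vegfa*, *Vegfb* and *Pgf* stayed within 2-fold. *Vegfc* reached 1% of cells in PC5 only, and *Pdgfb* in PC20 only.

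Of 14 genes for proteins that process or bind the ligands, 12 were seen in at least 1% of cells, with 8 past 2-fold in the direction of PC5 and 1 in that of PC20. Over all genes the shares were 22.3% and 20.0%. *St14*, 1 of the 8, reached 1% of cells in PC5 only, and *Nrp2* in PC20 only. The median log2 ratio was 1.38, against 0.03 for all genes, and no test of the list was made. *Plau* and *Plat*, which encode the plasminogen activators, had log2 ratios of 5.43 and 3.98. *Plau* stood at 22.3 CPM in PC5 and 0.518 in PC20, and *Plat* at 82.0 and 5.20. The convertase genes *Pcsk6* and *Furin* had log2 ratios of 2.75 and 1.95. *Nrp2*, a co-receptor gene for VEGF-type ligands, was the exception, at 0.489 CPM in PC5 against 160 for PC20, and its log2 ratio was -8.36. PC20, the library with more *Pdgfc*, thus held fewer transcripts of the plasminogen activators.

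The effector genes that carry the receptor signal passed 2-fold in PC5 about as often as genes at large, and in PC20 less often. All 29 were seen in at least 1% of cells, and 21 lay within 2-fold, 7 were more than 2-fold higher in PC5 and 1 in PC20, beside 22.3% and 20.0% of all 13539 genes. Their median log2 ratio was 0.68 against 0.03 for all genes. The genes with the largest ratios were *Stat3* (2.18), *Nck2* (1.62), *Crk* (1.47) and *Cbl* (1.44), which encode a transcription factor, a pair of adaptors and a ubiquitin ligase. *Pik3cb*, a PI3 kinase subunit gene, was the only gene of the list past 2-fold in PC20, at -1.24.

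Of 15 genes known to be induced by growth factors, 4 were more than 2-fold higher in PC5, 2 in PC20 and 9 lay within 2-fold, which is near the shares over all genes, 22.3% and 20.0%. The median log2 ratio of the list was 0.75. The chemokine genes *Ccl7* and *Ccl2* had the largest ratios, 6.36 and 5.14, followed by *Egr2* (2.57) and *Junb* (1.05). *Plaur* (-1.66), which encodes the urokinase receptor, and the AP-1 gene *Fosl1* (-1.62) were higher in PC20.

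**Figure D5:**
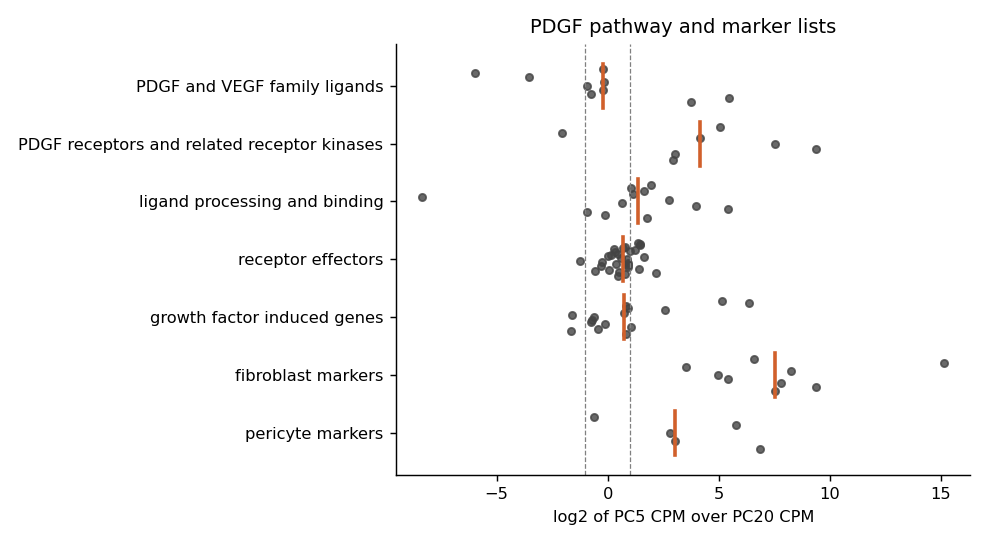
Log2 ratio of PC5 over PC20 CPM for genes of 7 lists that had a UMI in at least 1% of cells of either library, with 1 point per gene, orange lines at the medians and dashed lines at 2-fold. Genes with 0 PC20 UMIs (*Lum*, *Rgs5*) are drawn at their bound against 3 UMIs. The effector genes cluster around 0.68. The 9 fibroblast markers, *Pdgfra* among them, all lie to the right of the 2-fold line, with a median of 7.54.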

How the data were processed

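Single-cell libraries of cultured PCs at passage 5 and passage 20, 1 each, were grouped by their titles. The authors deposited, for each gene and barcode, UMI counts made with Cell Ranger (version 5.0 in the submitters' processing notes, 5.0.1 in the file headers) on mm10, without normalization. Barcodes were called by that software, and 0 columns of other series were present. The study's cell filter was applied. UMIs were summed over kept cells and scaled to CPM. Log2 ratios are PC5 over PC20, with exact conditional binomial intervals, exact Poisson intervals for CPM and Clopper-Pearson intervals for shares, all at the 95% level and for counting error only. Cells are not replicates, so no p-value was computed. A ratio against 0 UMIs was bounded with 3 UMIs. Thinning used a seed of 1 and the 10th percentile of UMIs per cell over both libraries, taken down to the next multiple of 500.

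Clusters were made per library with scanpy 1.11.5 and leidenalg 0.10.2 (2000 variable genes, 15 components, 15 neighbours, resolution 0.5). A cluster's leading genes were seen in at least 25% of its cells, and 1 of them is not reported here. No doublet caller was run, and leaving out the 5% deepest cells served as the alternative. Other alternatives were stricter filters (2000 genes, 10% mitochondrial UMIs), cells without *Mki67* and *Top2a*, thinned cells, means over cells, TMM scaling (edgeR 4.0.16, R 4.3.3, used for scaling only) and other detection minimums. Leaving out shared barcodes or clusters of shallow cells, and expectations within clusters, were chosen after the data were seen. Numpy 2.4.6 and scipy 1.17.1 were used with Python 3.11.15.

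Named genes are the 5 genes and *Pdgfrb*, up to 4 genes per list with the largest ratios past 2-fold in each direction, cell type markers, and the 5 genes most like each PDGF gene seen in at least 10% of thinned cells. Leading genes of clusters, *Col1a2*, *Krt18*, *Pdgfrl*, *St14*, list genes within 2-fold and neighbouring genes were named after their values were seen. The genes and lists were chosen with earlier results of these data known. Libraries of 1000 cells were simulated as Poisson counts from the summed PC5 profile, with 200 of 10564 genes changed. All 200 ratios had the right sign and 96.5% of their intervals held the true value. Uneven spread of a gene between cells was not simulated, so this checks the calculation only.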

Additional observations from a re-analysis of the deposited data

How the results depend on the processing

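Over 90 alternative values, 75 lay within the counting interval or within 1.5 times the count, 15 moved further and 0 reversed a difference past 2-fold. Without cells holding *Mki67* or *Top2a* UMIs the log2 ratios were -0.048 for *Pdgfa*, -5.14 for *Pdgfb*, -0.38 for *Pdgfd* and 2.74 for *Pdgfrb*. TMM scaling gave -0.31 for *Pdgfa*, and means over cells gave -5.20 for *Pdgfb*. In thinned cells *Pdgfd* changed sign, to 0.090 (-0.17 to 0.35). The *Pdgfra* percentage of PC5 receptor UMIs was 67.6 without *Mki67* or *Top2a* cells, 67.7 in thinned cells and 67.4 as a mean over cells. Cells with both receptors over expectation came to 1.07 in thinned PC5 cells and to 0 in PC20, both in thinned cells and without *Mki67* or *Top2a* cells, where few were expected. Genes more than 2-fold higher in PC5 numbered 5005 of 18294 with no filter on low counts and 1880 of 10504 with a UMI in at least 10% of cells. The cause of these shifts was not tested, apart from the number of genes counted.

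No paired analysis was possible because each passage has 1 library, so there was also no replicate to leave out. The 25 *Pdgfra* UMIs of PC20 and the 18 *Pdgfb* UMIs of PC5 set the precision of those ratios.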

Other observations

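The few cells on the low side of each large difference were read for other genes, chosen after the values were seen. All 21 PC20 cells with a *Pdgfra* UMI also held *Krt18*, 20 held *Nrp2*, and 0 held *Cdkn2a*, *Tagln* or *Thy1*, genes seen in at least 50.3% of PC5 cells. Over all PC20 cells the shares were 99.6% for *Krt18*, 91.5% for *Nrp2* and at most 0.337% for *Cdkn2a*, *Tagln* and *Thy1*, so these counts were close to those of the library. Of the 21 cells, 18 held a single *Pdgfra* UMI and 1 held *Col1a2*, which was seen in 0.190% of all PC20 cells. *Col1a1* was found in 2 of the 21, with 61 of the 1155 *Col1a1* UMIs of the library, and in 6.82% of all PC20 cells. The 10 PC5 cells with a *Pdgfb* UMI included 9 with *Col1a2*, 9 with *Cdkn2a* and 8 with *Cdh5*, and 0 with *Krt18*. Over all PC5 cells the shares of these genes were 98.1%, 98.4%, 73.2% and 0.261%. Of the 10 cells, 2 held *Pecam1*, with 13 of the 121 *Pecam1* UMIs of the library. *Nrp2*, which was seen in 0.884% of all PC5 cells, was found in 5 of the 10. A single cell of the cluster led by *Mt3* and *Sox2* held 5 of the 18 *Pdgfb* UMIs.

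A PC5 cluster of 48 cells led by *Matn4* and *Wnt4* had the highest *Pdgfa* level of any cluster in either library, 187 CPM, with *Pdgfra* at 34.6 CPM. It was too small for the comparison of clusters.

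Genes within 1000 kb of each PDGF gene were also read, again after the data were seen. Near *Pdgfra*, 6 of 10 coding genes were seen in at least 1% of cells, and 3 were more than 2-fold higher in PC5 and 0 in PC20, beside 22.3% and 20.0% of all genes. The same counts were 6 and 2 of 29 near *Pdgfa*, 5 and 7 of 39 near *Pdgfb*, 1 and 1 of 3 near *Pdgfc*, and 1 and 0 of 4 near *Pdgfd*. Those near *Pdgfra* were *Chic2* (138 CPM in PC5 and 63.0 in PC20), *Scfd2* (3.44 and 1.63) and *Kdr*, which reached 1% of cells in PC5 only. *Kit*, the neighbouring receptor kinase gene 377 kb away, had 123 UMIs in PC5 and 2 in PC20. *Prkar1b*, 19.9 kb from *Pdgfa*, had 16.2 CPM in PC5 and 0.481 in PC20, whereas *Pdgfa* itself stayed within 2-fold. *Cbx7*, 24.8 kb from *Pdgfb*, was higher in PC20, at 5.26 CPM against 0.525.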
